A study of Mus musculus with 30 samples.

Results

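The genes described here are 7 genes of antigen presentation by MHC class II: *H2-Aa*, *H2-Ab1*, *H2-Eb1*, *Cd74*, *H2-DMa*, *H2-DMb1* and *Ciita*. They were taken by symbol from the 55450 gene rows of the liver count table, and each symbol matched 1 row. In the mouse livers studied, mRNA of all 7 genes was lowest in *Cebpa* fl/fl mice after the shortest diet, and it was higher in livers without hepatocyte CEBPA after the longest tamoxifen treatment, with log2 differences of 1.77 to 2.32.

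MHC class II molecules present peptides of proteins taken up from outside the cell to CD4+ T cells. Each molecule is a pair of an alpha and a beta chain, encoded in the mouse by *H2-Aa* and *H2-Ab1* (the I-A molecule) and, for the beta chain of I-E, by *H2-Eb1*. *Cd74* encodes the invariant chain, which fills the peptide groove until proteases degrade it in the endosome, and *H2-DMa* and *H2-DMb1* encode the chains of H2-M, which exchanges the remaining fragment of the invariant chain for antigenic peptide. *Ciita* encodes the transactivator that switches the genes on without binding DNA itself. It is recruited by factors bound to the conserved X and Y boxes of class II promoters. Dendritic cells, B cells and macrophages carry class II constitutively or on activation, and interferon-gamma can induce *Ciita* in many other cell types.

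The livers came from male mice of 3 experiments, all fed HFCFD, a diet rich in fat, cholesterol and fructose. In HFCFD2W, mice were fed HFCFD for 2 weeks without tamoxifen, and *Cebpa* fl/fl mice were compared with CebpaΔHep mice, in which Cre under the albumin promoter deletes *Cebpa* in hepatocytes from development on. In HFCFD8W+T10D (8 weeks of HFCFD, with tamoxifen for 10 days) and HFCFD12W+T10W (12 weeks of HFCFD, then 10 further weeks of it with tamoxifen), the knockout mice were CebpaΔHep,ERT2, in which tamoxifen activates an albumin-driven Cre. All mice carried both floxed *Cebpa* alleles on a C57BL/6N background, the controls were Cre-negative littermates, and each of the 6 groups held 5 mice with 1 library per mouse. The ages of the mice are not given in the sources used here.

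Library totals ran from 7996123 to 10257347 counts. *Cebpa* itself, in CPM (counts scaled to the normalised library total), was 149 to 193 in the controls of HFCFD2W, 121 to 156 in those of HFCFD8W+T10D and 82.4 to 135 in those of HFCFD12W+T10W. The knockout mice had 3.43 to 5.67, 11.1 to 25.1 and 18.7 to 23.8 CPM in the same order, so no mouse was out of place by its genotype label. *Alb*, the hepatocyte gene for albumin, had a group mean of at least 35021 CPM in all 6 groups.

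The sequence looked for was the pair of class II promoter boxes that the RFX and NF-Y factors and, through them, CIITA occupy. Among the RefSeq promoters (GRCm38.p6, 250 bases before to 50 bases after the start), 4 of the 7 genes had an entry: *H2-Aa*, *H2-Eb1*, *H2-DMa* and *H2-DMb1*. The search looked on either strand for GCAAC, from the core of the X box, followed after 24 to 32 bases by ATTGG, the inverted CCAAT of the Y box. The pair was present in 134 of 32851 promoters (0.408%), while GCAAC alone was in 35.2% and ATTGG alone in 37.4%. Windows with the pair are shown for *H2-Aa* and *H2-Eb1*, and for *H2-Eb2* and *H2-Ob*, neighbouring class II genes, because they allow the spacing and the sequence between the boxes to be compared. They read 5′ to 3′ on the gene's strand, with GCAAC and ATTGG in capitals.
H2-Aa: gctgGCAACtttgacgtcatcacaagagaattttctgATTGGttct
H2-Eb1: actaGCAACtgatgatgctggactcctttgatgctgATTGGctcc
H2-Eb2: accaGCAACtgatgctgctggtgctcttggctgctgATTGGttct
H2-Ob: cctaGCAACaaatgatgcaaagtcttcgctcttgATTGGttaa

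These windows are at chr17:34287863-34287908 (minus strand) for *H2-Aa*, chr17:34305772-34305816 (plus) for *H2-Eb1*, chr17:34325539-34325583 (plus) for *H2-Eb2* and chr17:34238814-34238856 (plus) for *H2-Ob*. All 4 lie before the start of the gene and overlap no annotated exon. The spacer between the boxes was 28 bases in *H2-Aa*, 27 in *H2-Eb1*, 27 in *H2-Eb2* and 25 in *H2-Ob*. In *H2-Aa* GCAAC began 81 bases and ATTGG 48 bases before the start, and in *H2-Eb1* they began 91 and 59 bases before it. *H2-DMb1* held the pair only when the second base of the first box was left free (GNAAC, present in 1.54% of promoters with the same spacing and chosen after the sequences were seen). *H2-DMa* held neither form at either of its 2 starts. A match describes letters in a window and was not tested as a site.

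The genes lie on 3 chromosomes of the mouse genome (GRCm38). With their GENCODE positions, 5 of them sit in the class II region of chromosome 17 within 197 kb: *H2-DMa* at 34119541 to 34139101, *H2-DMb1* at 34153072 to 34160230, *H2-Ab1* at 34257689 to 34269419 and *H2-Eb1* at 34305867 to 34316674 on the plus strand, and *H2-Aa* at 34282744 to 34287823 on the minus strand. *Cd74* is on chromosome 18 at 60803848 to 60812652, and *Ciita* is on chromosome 16 at 10480059 to 10528418, both on the plus strand. The values below therefore compare neighbouring genes with 2 that are not linked to them.

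Per length, *Cd74* gave the most mRNA of the 7 genes and *Ciita* the least in every group. In TPM (the authors' length-corrected unit, relative transcript abundance), *Cd74* averaged 42.2 ± 8.75 (SD, n = 5) in *Cebpa* fl/fl mice of HFCFD2W and 609 ± 152 (SD, n = 5) in knockout mice of HFCFD12W+T10W, the ends of its range. *Ciita* averaged 0.076 ± 0.0503 and 1.99 ± 0.638 TPM in the same groups. The transactivator was thus a rare mRNA wherever its targets were measured. TPM does not carry the library normalisation of CPM, so changes between groups are read from CPM. In that unit *Cd74* averaged 47.9 and 396 in the same groups, a ratio of 8.27.

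Levels changed far more than proportions did. *Cd74* made up 42.6% to 44.4% of the summed TPM of the 7 genes in the 6 group means, *H2-Aa* 20.4% to 22.5%, *H2-Ab1* 14.2% to 15.9% and *H2-Eb1* 13.2% to 16.7%. *H2-DMa* held 1.86% to 3.06%, and *H2-DMb1* held 1.67% to 2.06%. Summed CPM of the 7 genes had medians of 93.0, 199 and 354 in the controls of HFCFD2W, HFCFD12W+T10W and HFCFD8W+T10D. For the knockout mice of these experiments the medians were 127, 780 and 768 CPM. The alpha and beta chains of I-A were close to each other in each library, with an *H2-Aa* to *H2-Ab1* ratio of TPM between 1.09 and 1.80 (median 1.44, n = 30). The ratio of the 2 chains of H2-M varied more between libraries, with *H2-DMa* to *H2-DMb1* between 0.914 and 3.55 (median 1.34). Its highest value was in HFCFD2W, where both genes had few counts, and its lowest was in *Cebpa* fl/fl mice of HFCFD12W+T10W.

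**Figure D1:**
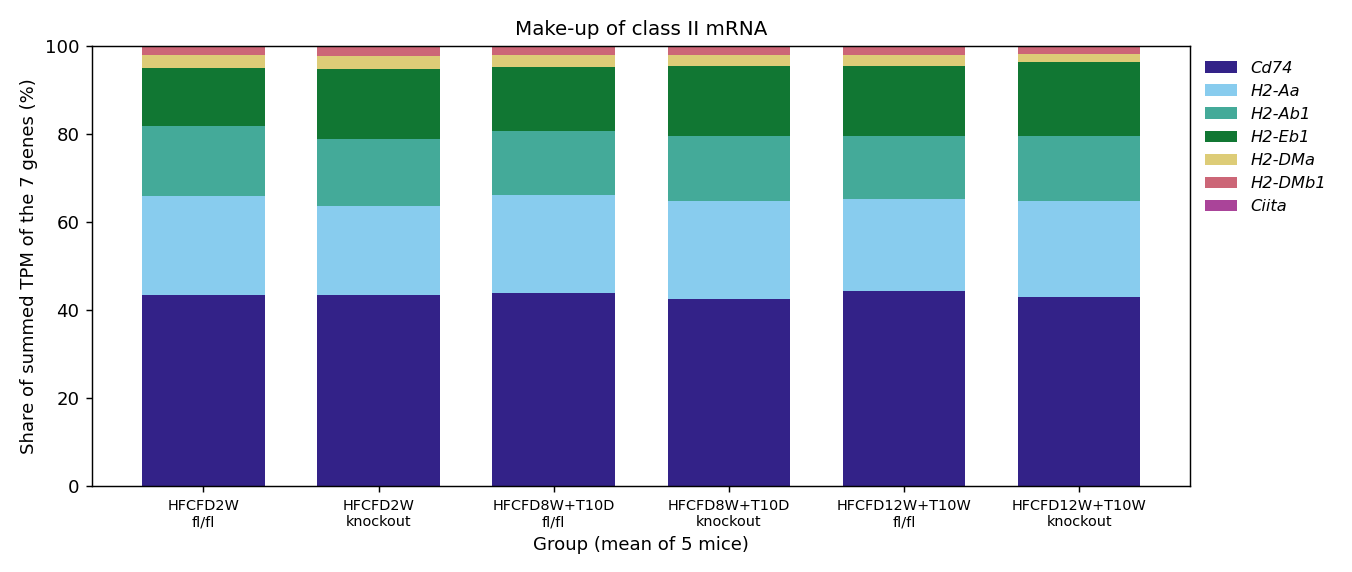
Stacked bars of the share of the summed TPM of the 7 class II genes (y axis, %) held by each gene, as the mean of 5 mice in each of the 6 groups (x axis). *Cd74* holds 42.6% to 44.4% in every group and *Ciita* is too thin to see at 0.077% to 0.165%.

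The chain genes of I-A and I-E followed one order of groups. *H2-Aa* ranged from a mean of 21.3 ± 5.06 CPM (SD, n = 5) in *Cebpa* fl/fl mice of HFCFD2W to 176 ± 41.0 CPM (SD, n = 5) in knockout mice of HFCFD12W+T10W, a ratio of means of 8.26. The same ratio was 8.38 for *H2-Ab1* and 10.2 for *H2-Eb1*. Between these ends the order from low to high was knockout mice of HFCFD2W, *Cebpa* fl/fl mice of HFCFD12W+T10W, *Cebpa* fl/fl mice of HFCFD8W+T10D and knockout mice of HFCFD8W+T10D. *Cd74*, *H2-DMb1* and *Ciita* had this order too. *H2-DMa* differed in that its mean was highest in knockout mice of HFCFD8W+T10D. The 2 highest groups, the knockout mice of HFCFD8W+T10D and HFCFD12W+T10W, did not differ beyond their spread for any of the 7 genes: their gap on the log2 scale was smaller than the larger SD, and their mice overlapped. The 2 lowest groups were likewise within the larger SD for *H2-Aa*, *H2-Ab1* and *H2-DMa*. Knockout mice of HFCFD2W and *Cebpa* fl/fl mice of HFCFD12W+T10W were within it for *H2-DMa* and *Ciita*, and so were the *Cebpa* fl/fl mice of HFCFD12W+T10W and HFCFD8W+T10D for *Ciita*.

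**Figure D2:**
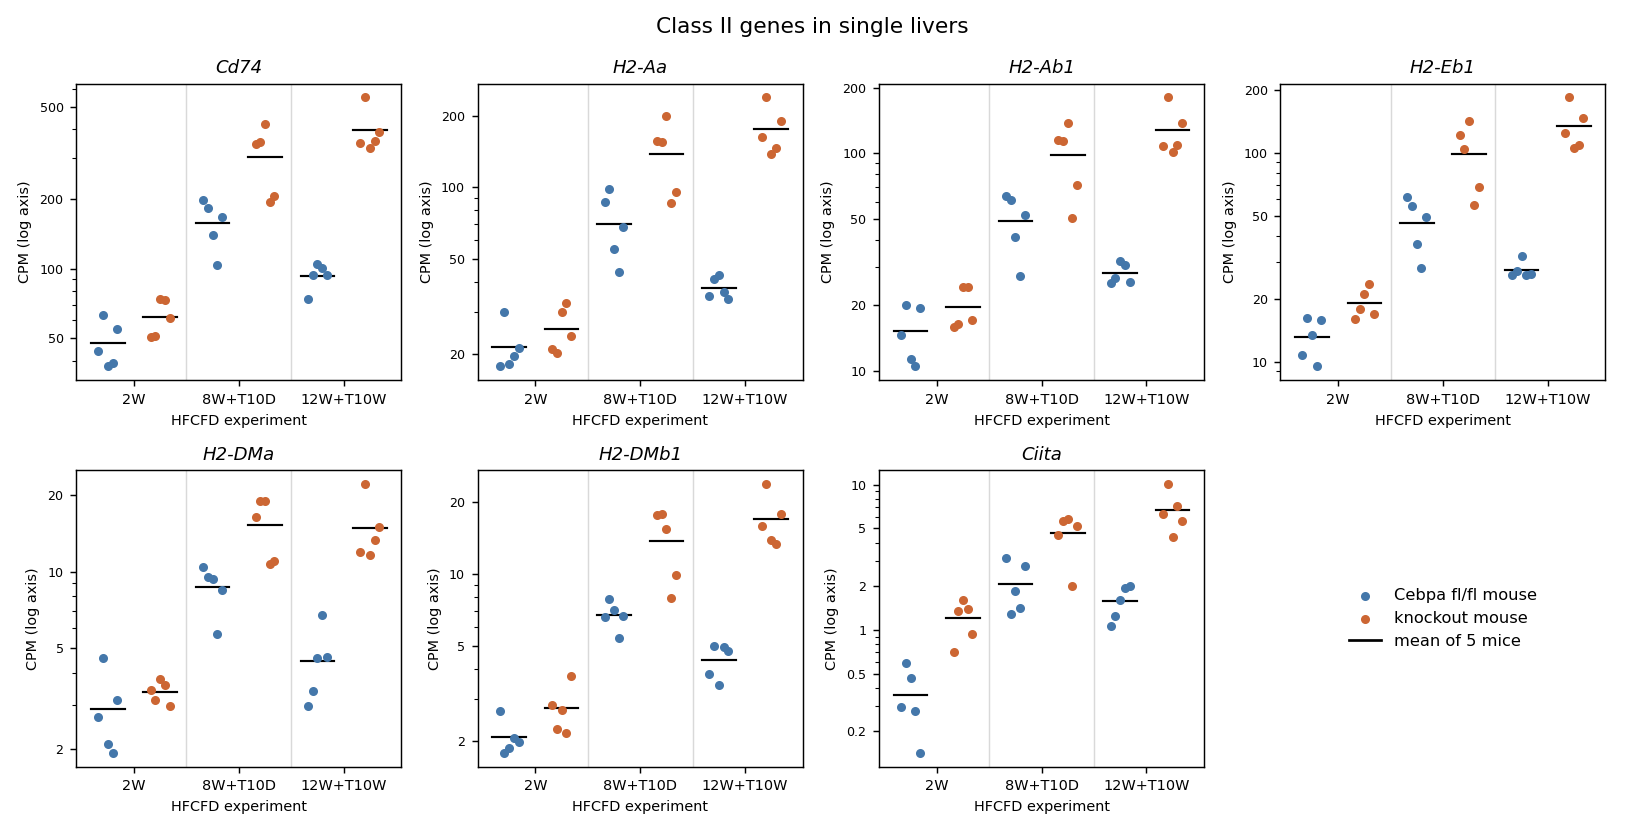
CPM of the 7 class II genes in single livers (y axis, log scale, 1 panel per gene) for the 3 HFCFD experiments (x axis), with *Cebpa* fl/fl mice in blue, knockout mice in orange and a line at the mean of 5 mice. In the right-hand pair of each panel the knockout and *Cebpa* fl/fl mice do not overlap, for *Cd74* at 332 to 551 against 74.1 to 104 CPM.

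The question within each experiment was how loss of hepatocyte CEBPA changed liver mRNA. After 2 weeks of HFCFD, *H2-Eb1*, the beta chain of I-E, was at 10.8, 16.2, 13.4, 9.52 and 15.9 CPM in *Cebpa* fl/fl mice and at 16, 17.8, 21.1, 23.6 and 16.9 CPM in CebpaΔHep mice. The genotypes overlapped by a narrow margin. *H2-Eb1* was higher by 0.54 on the log2 scale (SE 0.159), with an adjusted p of 0.036 from edgeR's quasi-likelihood F test. It passed the adjusted p but not the fold of 2, and its adjusted p was above 0.05 in 7 of 16 alternative analyses: without *Cebpa* fl/fl mouse 1, 3 or 4, without CebpaΔHep mouse 4 or 5, with a replicate block (0.13) and in the fit of all 30 libraries (0.146). *Cd74*, next, passed only without *Cebpa* fl/fl mouse 2 (0.0461). In whole liver, more class II cells and more class II mRNA per cell cannot be told apart, here and below.

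*Cd74* in the same experiment was at 44.2, 63.2, 37.9, 39.3 and 54.9 CPM in *Cebpa* fl/fl mice and at 50.5, 51.1, 74.2, 73.4 and 61.3 CPM in CebpaΔHep mice, with the ranges overlapping. Its log2 difference was 0.38 (SE 0.155, adjusted p = 0.116). *H2-Aa*, *H2-Ab1*, *H2-DMa* and *H2-DMb1* had log2 differences of 0.24 to 0.40 and adjusted p of 0.216 to 0.519. Counted together, 0 of the 6 genes tested were called higher by edgeR, where a call needs an adjusted p under 0.05 and a fold over 2, against 1.69% of all genes tested. At an unadjusted p under 0.05 the count was 2 of 6, beside 3453 of all 11068 genes tested. DESeq2 called 1 gene, *Ciita*.

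*Ciita* was too low in HFCFD2W to enter that test. Its counts were 2, 4, 4, 2 and 1 in *Cebpa* fl/fl mice and 6, 12, 12, 11 and 7 in CebpaΔHep mice, or 0.142 to 0.593 against 0.71 to 1.62 CPM. The mice did not overlap, as in 6.33% of the genes tested in this experiment. Without the low-count filter, edgeR gave a log2 difference of 1.70 (SE 0.442, adjusted p = 0.0179). The fit of all 30 libraries gave 1.71 (SE 0.464, adjusted p = 0.0133) and DESeq2 gave 1.75 (SE 0.574, adjusted p = 0.0207). These values rest on few reads and are given as alternatives.

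After 8 weeks of HFCFD with 10 days of tamoxifen, all 7 genes passed the adjusted p in the direction of higher mRNA in CebpaΔHep,ERT2 mice, against 10.3% of all genes tested, with log2 differences of 0.83 to 1.17. *H2-DMb1*, a chain of the peptide exchange factor H2-M, was at 6.60, 7.89, 7.06, 5.38 and 6.68 CPM in *Cebpa* fl/fl mice and at 17.6, 17.8, 15.4, 7.94 and 9.87 CPM in knockout mice. The lowest knockout mouse was just above the highest control. *H2-DMb1* was higher by 1.05 on the log2 scale (SE 0.223, adjusted p = 0.00728).

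*Cd74* in this experiment was at 198, 183, 140.0, 104 and 166 CPM in *Cebpa* fl/fl mice and at 345, 352, 422, 193 and 206 CPM in knockout mice. Knockout mice 1, 2, 3 and 5 were above every control, mouse 5 by a narrow margin, while knockout mouse 4 was below the highest control. The log2 difference of *Cd74* was 0.96 (SE 0.234, adjusted p = 0.0148). *Ciita* was at 3.13, 1.29, 1.85, 1.42 and 2.75 CPM in *Cebpa* fl/fl mice and at 4.49, 5.67, 5.84, 2.02 and 5.22 CPM in knockout mice. Again knockout mouse 4 was the low one, and the log2 difference was 1.17 (SE 0.317, adjusted p = 0.0236).

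With the fold of 2 added, 4 of the 7 genes were called in HFCFD8W+T10D: *H2-Ab1* (log2 1.02), *H2-Eb1* (1.11), *H2-DMb1* and *Ciita*. The background was 4.09% of all genes tested. *Cd74*, *H2-Aa* (1.00) and *H2-DMa* (0.83) passed the adjusted p and fell short of the fold. The count of 4 depended on single mice, because the differences lay near the fold of 2: it was 2 without knockout mouse 1, 1 without knockout mouse 2, 1 without knockout mouse 3, 2 without *Cebpa* fl/fl mouse 3 and 0 without *Cebpa* fl/fl mouse 4. The adjusted p went above 0.05 for *H2-Ab1* without knockout mouse 1 or 3 or without *Cebpa* fl/fl mouse 3 or 4, reaching 0.0616. For *Ciita* it did so without knockout mouse 2 or 3 or without *Cebpa* fl/fl mouse 2, 3 or 4, reaching 0.0621. The genotypes did not overlap for *H2-DMa* and *H2-DMb1*, 2 of 7 genes, against 6.01% of all genes.

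In HFCFD12W+T10W, after 10 weeks of tamoxifen, all 7 genes were called higher in CebpaΔHep,ERT2 mice, against 14.3% of all genes tested, and the genotypes did not overlap for any of the 7, against 19.5%. *Cd74* was at 74.1, 94.2, 104, 101 and 93.5 CPM in *Cebpa* fl/fl mice and at 351, 551, 332, 355 and 391 CPM in knockout mice. The lowest knockout liver thus had over 3 times the *Cd74* mRNA of the highest control, and the log2 difference was 2.13 (SE 0.146, adjusted p = 3.59e-07). *H2-Aa*, the alpha chain of I-A, was at 34.9, 41.0, 42.9, 36.2 and 34 CPM against 163, 239.9, 139, 146 and 190.1 CPM. The controls lay close together and mouse 2 was the highest of the knockout mice, as it was for *Cd74*. The log2 difference of *H2-Aa* was 2.26 (SE 0.145, adjusted p = 2.38e-07).

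*H2-Eb1* was at 26.1, 27.3, 32.1, 26 and 26.4 CPM in *Cebpa* fl/fl mice and at 124, 184, 105, 109 and 147 CPM in knockout mice of HFCFD12W+T10W. Its log2 difference of 2.32 (SE 0.148, adjusted p = 2.32e-07) was the largest of the 7. *H2-Ab1*, at 25.3 to 32.1 against 102 to 182 CPM, had a log2 difference of 2.23 (SE 0.157, adjusted p = 4.17e-07). The invariant chain and the chains of I-A and I-E thus spanned log2 differences from 2.13 to 2.32.

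The genes of peptide exchange and the transactivator had log2 differences near these. *H2-DMa* was at 2.97, 3.40, 4.59, 6.77 and 4.64 CPM against 12, 22.2, 11.6, 13.4 and 15 CPM, a log2 difference of 1.77 (SE 0.232, adjusted p = 4.49e-05). *H2-DMb1* was at 3.44 to 4.98 against 13.3 to 23.8 CPM, a log2 difference of 1.99 (SE 0.178, adjusted p = 2.46e-06). *Ciita* was at 1.07, 1.25, 1.61, 1.95 and 2.02 CPM against 6.27, 10.1, 4.38, 7.10 and 5.65 CPM. Its lowest knockout liver was above its highest control, and its log2 difference was 2.11 (SE 0.257, adjusted p = 2.52e-05). The median log2 difference of the 7 genes was 2.13, beside 0.01 for all 12463 genes tested. In HFCFD8W+T10D these medians were 1.02 and 0.01, and in HFCFD2W they were 0.38, over the 6 genes tested, and 0.01.

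**Figure D3:**
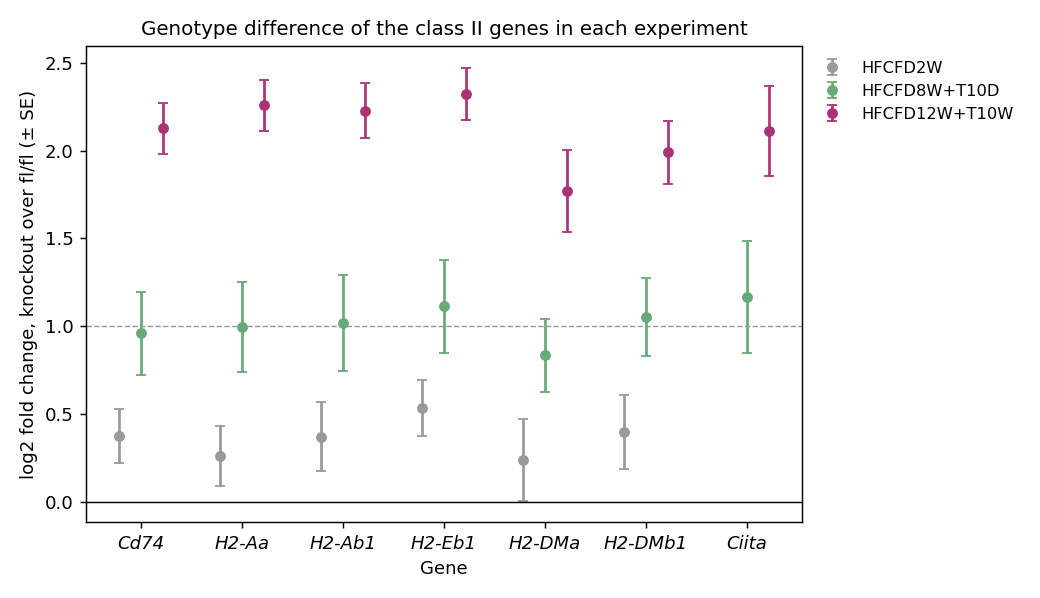
log2 fold change of knockout over *Cebpa* fl/fl mice (y axis, points with SE bars from edgeR) for the 7 class II genes (x axis) in the 3 experiments, 5 against 5 mice each, with a dashed line at a fold of 2. HFCFD2W lies at 0.24 to 0.54 (*Ciita* was not tested there), HFCFD8W+T10D at 0.83 to 1.17 and HFCFD12W+T10W at 1.77 to 2.32.

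The genotype differences were compared between experiments as interactions in 1 fit of all 30 libraries, in which the pairs of experiments share groups with each other and so are not independent. Between HFCFD12W+T10W and HFCFD2W, 6 of the 7 genes had a larger difference in HFCFD12W+T10W, against 13.4% of all genes tested. The difference of differences ran from 1.49 (*H2-DMa*, SE 0.364, adjusted p = 0.00267) to 1.96 (*H2-Aa*, SE 0.315, adjusted p = 4.32e-05) on the log2 scale. *Ciita* was the exception, at 0.36 (SE 0.636, adjusted p = 0.707), with the widest error of the 7 and the fewest counts in HFCFD2W.

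Between HFCFD12W+T10W and HFCFD8W+T10D, which share the tamoxifen-inducible Cre line, 5 of the 7 genes passed, against 4.97% of all genes with a difference above 0 and 5.49% below 0. *Cd74* differed by 1.14 (SE 0.279, adjusted p = 0.00968), *H2-Aa* by 1.24, *H2-Ab1* and *H2-Eb1* by 1.18 and *H2-DMb1* by 0.91 (SE 0.274, adjusted p = 0.031). *H2-DMa* at 0.91 (adjusted p = 0.0565) and *Ciita* at 0.92 (adjusted p = 0.142) did not pass. Both H2-M genes were near the threshold: over the alternatives the adjusted p of *H2-DMb1* ran from 0.0116 to 0.0675, and that of *H2-DMa* from 0.023 to 0.127. Between HFCFD8W+T10D and HFCFD2W, 0 of the 7 genes passed in edgeR, against 4.45% of all genes above and 6.79% below 0. DESeq2 gave 0 as well. At an unadjusted p under 0.05 the count was 1 of 7, beside 3368 of all 12964 genes. The estimates there were 0.56 to 0.72 for 6 genes and -0.56 for *Ciita*.

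The control groups moved as well. All 7 genes were called higher in *Cebpa* fl/fl mice of HFCFD8W+T10D than of HFCFD2W, against 11.1% of all genes, with log2 differences from 1.60 for *H2-DMa* to 2.51 for *Ciita* (SE 0.422, adjusted p = 2.47e-05). *Cd74*, at 37.9 to 63.2 and 104 to 198 CPM in these groups, had a log2 difference of 1.72 (SE 0.205, adjusted p = 2.08e-07). From HFCFD8W+T10D to HFCFD12W+T10W the controls went the other way. There 5 of the 7 genes passed the adjusted p as lower, against 5.12% of all genes: *H2-DMa* (log2 -0.95), *H2-Aa* (-0.90), *H2-Ab1* (-0.80), *Cd74* (-0.76) and *H2-Eb1* (-0.74). No member was higher (1.19% of all genes were called higher and 6.31% passed as higher) and none of the lower members reached the fold of 2. *H2-DMb1* was at -0.61 (adjusted p = 0.0538) and *Ciita* at -0.40 (adjusted p = 0.446). Leaving out 1 mouse took the adjusted p of *H2-Ab1* (up to 0.0792) and *H2-Eb1* (up to 0.0824) above 0.05, most of all without *Cebpa* fl/fl mouse 1 of HFCFD8W+T10D.

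Set side by side, the ratio of mean CPM in HFCFD12W+T10W over HFCFD8W+T10D was 0.514 to 0.755 in *Cebpa* fl/fl mice and 0.973 to 1.44 in knockout mice across the 7 genes. The larger genotype difference in HFCFD12W+T10W thus went with lower control means for all 7 genes and with higher knockout means for 6 of the 7. The ranges of HFCFD12W+T10W and HFCFD8W+T10D overlapped for all 7 genes in knockout mice and for 5 of the 7 in *Cebpa* fl/fl mice. The knockout mice of these experiments were not tested against each other. Diet time, length of tamoxifen treatment and experiment cannot be told apart in comparisons between experiments, nor can the Cre line where knockout mice of HFCFD2W are compared with the others.

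Close relatives of the 7 genes had little mRNA. *H2-DMb2*, a near-identical neighbour of *H2-DMb1*, had 0 to 25 counts in every library, and its TPM was 0 to 0.362 of that of *H2-DMb1*. Reads that fit both genes were divided by the authors' estimation, so the split between them is uncertain. In HFCFD12W+T10W *H2-DMb2* had 4, 3, 3, 8 and 4 counts in *Cebpa* fl/fl mice and 17, 13, 15, 22 and 25 in knockout mice. The genotypes did not overlap, but the gene passed the low-count filter through the knockout mice alone and was not tested in the other 2 experiments, so these counts are a description. *H2-Ea-ps*, the inactive gene of the I-E alpha chain, had 0 counts in all 30 libraries. C57BL/6 mice are known to lack the I-E alpha chain, and so the I-E molecule on the cell surface.

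Genes that prepare class II molecules for loading and turn them over also passed as higher in part or in full. *Ctss* (cathepsin S, which trims the invariant chain), *Ctsl*, *Lgmn* (an asparaginyl endopeptidase), *Ifi30* (a lysosomal thiol reductase) and *March1* (a ubiquitin ligase that removes class II from the surface) formed this list. In HFCFD2W 3 of the 4 genes tested passed the adjusted p as higher, against 8.6% of all genes: *Lgmn* (log2 0.50), *Ctss* (0.48) and *Ifi30* (0.44). In HFCFD8W+T10D 4 of 5 passed, against 10.3% of all genes, led by *Ctss* at 1.16 (SE 0.231, adjusted p = 0.00536). In HFCFD12W+T10W 5 of 5 passed, against 27.4% of all genes, from 0.30 for *Ctsl* to 1.78 for *Ctss* (SE 0.17, adjusted p = 3.95e-06).

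The factors that occupy class II promoters were tested as a list. Of *Rfx5*, *Rfxank*, *Rfxap*, *Nfya*, *Nfyb*, *Nfyc* and *Creb1*, 0 of 7 passed in edgeR in HFCFD2W and 0 of 7 in HFCFD8W+T10D. The shares of all genes were 8.6% higher and 8.09% lower in HFCFD2W, and 10.3% and 6.85% in HFCFD8W+T10D. At an unadjusted p under 0.05 there were 4 in HFCFD2W, in both directions (log2 -0.70 to 0.44), beside 3453 of all 11068 genes. In HFCFD8W+T10D there were 0, beside 3724 of all 11990 genes. In HFCFD12W+T10W *Nfya* (log2 0.75) and *Rfx5* (0.63) passed as higher, 2 of 7, a share near the 27.4% of all genes, and the median of the list was -0.03.

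On the path from interferon-gamma to *Ciita*, the cytokine gene *Ifng* had 0 counts in the 10 libraries of HFCFD2W and at most 3 counts in any library. In HFCFD2W 0 of 7 genes tested passed as higher, against 8.6% of all genes. *Irf1*, a transcription factor of the response, fell by 0.91 on the log2 scale (SE 0.234, adjusted p = 0.019), where 8.09% of all genes passed as lower. In HFCFD8W+T10D 3 of 7 passed as higher, against 10.3% of all genes, among them the receptor genes *Ifngr2* (0.50) and *Ifngr1* (0.49). In HFCFD12W+T10W 4 of 7 did, against 27.4%, among them *Ifngr1* (0.93), *Ifngr2* (0.68) and the kinase gene *Jak2* (0.25). None of the list was called with the fold of 2 in the 3 experiments, where 1.69%, 4.09% and 14.3% of all genes were called higher.

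Costimulatory genes, which give the second signal to T cells, were called with the class II genes in HFCFD12W+T10W only in part. *Cd40* (log2 1.94, SE 0.318), *Cd274* (1.58, SE 0.29, encoding the inhibitory ligand PD-L1) and *Cd86* (1.09, SE 0.185) were higher there, 3 of 4 genes tested. *Cd40* did not pass the low-count filter in the other 2 experiments. The count is therefore a description, beside 14.3% of all genes called higher and 27.4% passing as higher. In HFCFD8W+T10D 1 of 3 passed, *Cd86* at 0.78, against 10.3%, and in HFCFD2W 0 of 2 passed, against 8.6%. At an unadjusted p under 0.05 there were 2 in HFCFD2W, in opposite directions (log2 0.73 and -0.96), beside 3453 of all 11068 genes.

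Class I presentation, which shows peptides from inside the cell to CD8+ T cells, was set beside class II. In HFCFD12W+T10W 6 of 10 genes passed as higher, against 27.4% of all genes, led by the peptide transporter gene *Tap1* (log2 1.00) and the immunoproteasome genes *Psmb9* (0.75) and *Psmb8* (0.56), and the peptidase gene *Erap1* fell by 0.43 on the log2 scale. None of the 10 was called with the fold of 2, where 14.3% of all genes were called higher. Among the class I chains, *H2-D1* passed as higher at 0.34 (SE 0.0822, adjusted p = 0.00417), while *H2-K1* was at -0.07 (adjusted p = 0.498) and *B2m* at -0.06 (adjusted p = 0.601), and *Nlrc5*, the class I counterpart of *Ciita*, was at 0.02 (adjusted p = 0.9). In HFCFD8W+T10D 6 of 10 passed, led by *Psmb9* (1.05) and with *H2-D1* at 0.47 (adjusted p = 0.042), against 10.3% of all genes. In HFCFD2W 2 of 10 passed, *Psmb8* (0.47) and *Tapbp* (0.40), against 8.6%. The medians of the class I list were 0.16, 0.54 and 0.36 in the 3 experiments, beside 0.38, 1.02 and 2.13 for class II.

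**Figure D4:**
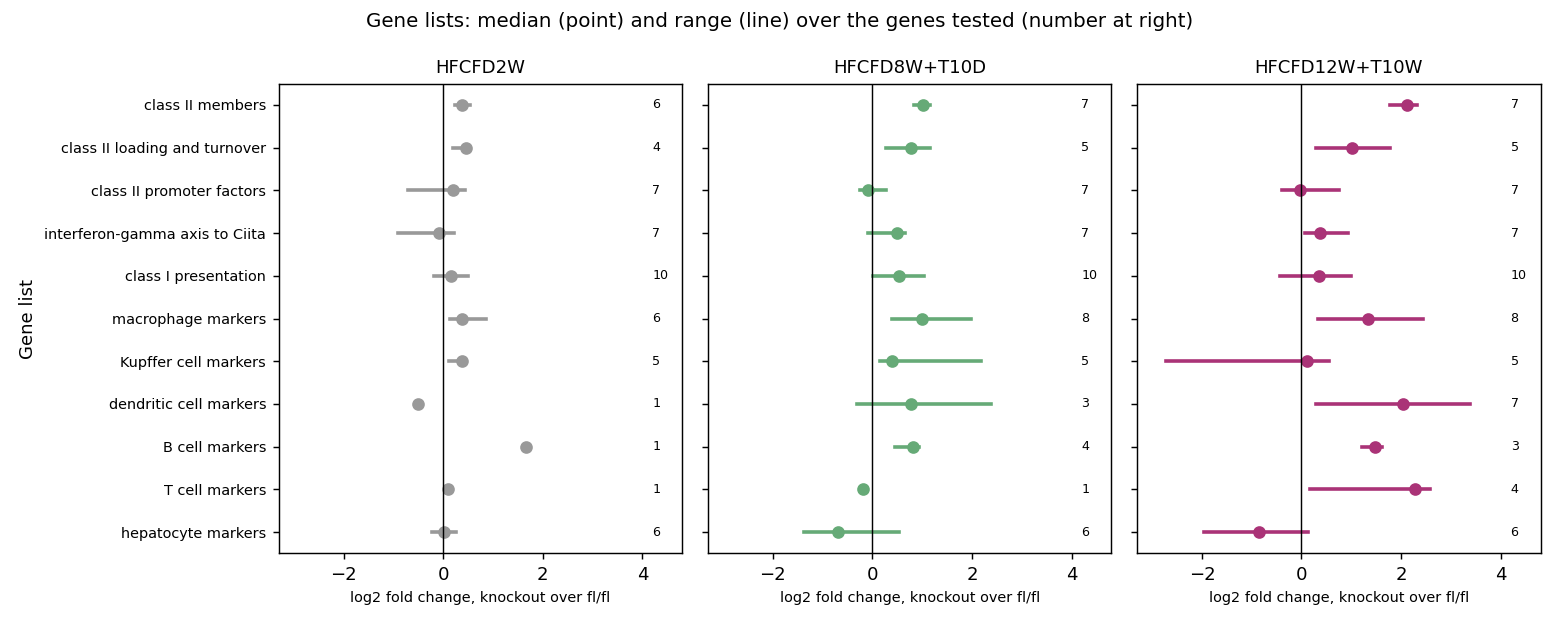
log2 fold change of knockout over *Cebpa* fl/fl mice (x axis) for 11 gene lists (y axis) in the 3 experiments, with a point at the median and a line over the range of the genes tested, whose number stands at the right of each panel. In HFCFD12W+T10W the class II genes lie between 1.77 and 2.32, while the promoter factors have a median of -0.03 and the class I genes one of 0.36.

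Cell types that carry class II were followed by marker genes. Macrophage markers (*Adgre1*, *Csf1r*, *Cd68*, *Mertk*, *Lyz2*, *Ptprc*, *Itgam* and *Ccr2*) passed as higher for 7 of 8 genes in both tamoxifen experiments and for 3 of 6 tested in HFCFD2W. The shares of all genes were 27.4% in HFCFD12W+T10W, 10.3% in HFCFD8W+T10D and 8.6% after 2 weeks. In HFCFD12W+T10W *Ccr2*, a receptor of recruited monocytes, had a log2 difference of 2.45 (SE 0.237). Their summed level was 155 to 400.4 CPM in *Cebpa* fl/fl and 568 to 727 CPM in knockout mice of HFCFD12W+T10W. In HFCFD8W+T10D the sum was 271 to 413 against 409 to 908 CPM, and in HFCFD2W 83.7 to 103 against 105 to 162 CPM. The macrophage sum and the class II genes thus had the same lowest experiment, and in HFCFD8W+T10D the same 2 knockout mice were low. Mice 4 and 5 had class II sums of 408 and 469 CPM and macrophage sums of 409 and 496 CPM. Mice 1 to 3 had 768 to 943 and 583 to 908 CPM. This was not particular to macrophage markers. Mice 4 and 5 were also the lowest of that group for Kupffer cell markers, at 736 and 690 CPM. So they were for dendritic cell markers (12.8 and 14.5 CPM) and T cell markers (5.33 and 5.69 CPM). For B cell markers mouse 1 was the lowest, at 13.1 CPM.

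Kupffer cell markers, of the resident macrophages of the liver, gave another picture by genotype. In HFCFD12W+T10W *Vsig4* was higher (log2 0.55) and *Timd4* (-2.72) and *Marco* (-2.35) were lower, where 27.4% of all genes passed as higher and 23.8% as lower, and the list's sum was 190.2 to 637 CPM in *Cebpa* fl/fl and 391 to 526 CPM in knockout mice. In HFCFD8W+T10D *Marco* was higher (2.18), 1 of 5, against 10.3% of all genes, and the sums were 407 to 829 and 690.4 to 1438 CPM. In HFCFD2W 0 of 5 passed in edgeR, against 8.6%, with sums of 157 to 227 and 184 to 287 CPM. At an unadjusted p under 0.05 there were 3 in HFCFD2W, beside 3453 of all 11068 genes.

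Dendritic cell markers passed as higher for 6 of the 7 genes tested in HFCFD12W+T10W, led by *Itgax* (log2 3.39), *Ccr7* (2.49), *Clec9a* (2.12) and *Ccl22* (2.04), while *Zbtb46*, a defining factor of conventional dendritic cells, was at 0.30 (adjusted p = 0.272). Some of these genes passed the low-count filter through the knockout mice alone, so the count is a description, to be read beside the 27.4% of all genes that passed as higher. The sum of all 10 markers was 6.34 to 11.7 CPM in *Cebpa* fl/fl and 26.6 to 37.1 CPM in knockout mice of HFCFD12W+T10W, 7.24 to 12.9 and 12.8 to 31.7 CPM in HFCFD8W+T10D, and 4.26 to 5.13 and 5.27 to 7.53 CPM in HFCFD2W. *Itgax* alone passed in HFCFD8W+T10D (2.38), 1 of 3, against 10.3% of all genes, and 0 of 1 passed in HFCFD2W, against 8.6%.

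Lymphocyte markers had few counts, and *Cd79b*, *Cd8a*, *Cd3g* and *Lck* had at most 10 counts in any *Cebpa* fl/fl library of HFCFD12W+T10W and passed the low-count filter there through the knockout mice. The counts of genes that passed are therefore a description, beside 27.4% of all genes. The 7 B cell markers summed to 6.11 to 24.9 CPM in *Cebpa* fl/fl and 19.2 to 42.5 CPM in knockout mice of HFCFD12W+T10W, where *Cd22* (log2 1.61), *Cd79b* (1.48) and *Ighm* (1.21) passed, 3 of 3 tested. The sums were 6.29 to 17.4 and 13.1 to 29.8 CPM in HFCFD8W+T10D, where 0 of 4 passed in edgeR, against 10.3% of all genes. At an unadjusted p under 0.05 there were 3, beside 3724 of all 11990 genes. In HFCFD2W the sums were 2.76 to 6.67 and 5.61 to 33.1 CPM. There 1 knockout mouse had 33.1 CPM and the other 4 had 5.61 to 9.46 CPM. The 8 T cell markers summed to 3.62 to 4.64 and 9.66 to 19.9 CPM in HFCFD12W+T10W, with *Cd8a* (2.57), *Cd3g* (2.34) and *Lck* (2.21) passing, 3 of 4. *Cd4* did not pass there, at 0.17 (adjusted p = 0.589). No marker of these lists was at 0 in every library of a group. Markers of other cells also moved in HFCFD12W+T10W. There 4 of 6 hepatocyte markers were lower (*Alb* at -1.10), against 23.8% of all genes, and 5 of 5 stellate cell markers were higher, against 27.4%. Cholangiocyte markers passed as higher for 4 of 4 genes (*Epcam* at 4.43). They summed to only 3.21 to 5.05 CPM in *Cebpa* fl/fl mice, and some passed the low-count filter through the knockout mice. That count is therefore a description.

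Hepatocyte markers were also lower in knockout mice of HFCFD8W+T10D, where *Serpina1c* (log2 -1.38), *Cps1* (-1.37) and *Alb* (-0.94) passed, 3 of 6, against 6.85% of all genes. Their sum was 107563 to 133367 CPM in *Cebpa* fl/fl mice and 50714 to 105767 CPM in knockout mice of HFCFD8W+T10D. Knockout mouse 4, the lowest of its group for the class II genes, had the highest hepatocyte sum, and the other 4 knockout mice had at most 68230 CPM. In HFCFD12W+T10W the sum was 93132 to 115074 CPM in *Cebpa* fl/fl and 44215 to 51929 CPM in knockout mice. In HFCFD2W 0 of 6 passed in edgeR, where 8.6% of all genes passed as higher and 8.09% as lower. At an unadjusted p under 0.05 there were 2, in opposite directions (log2 0.25 and -0.23), beside 3453 of all 11068 genes. What share any of these cell types had in the class II values was not tested.

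**Figure D5:**
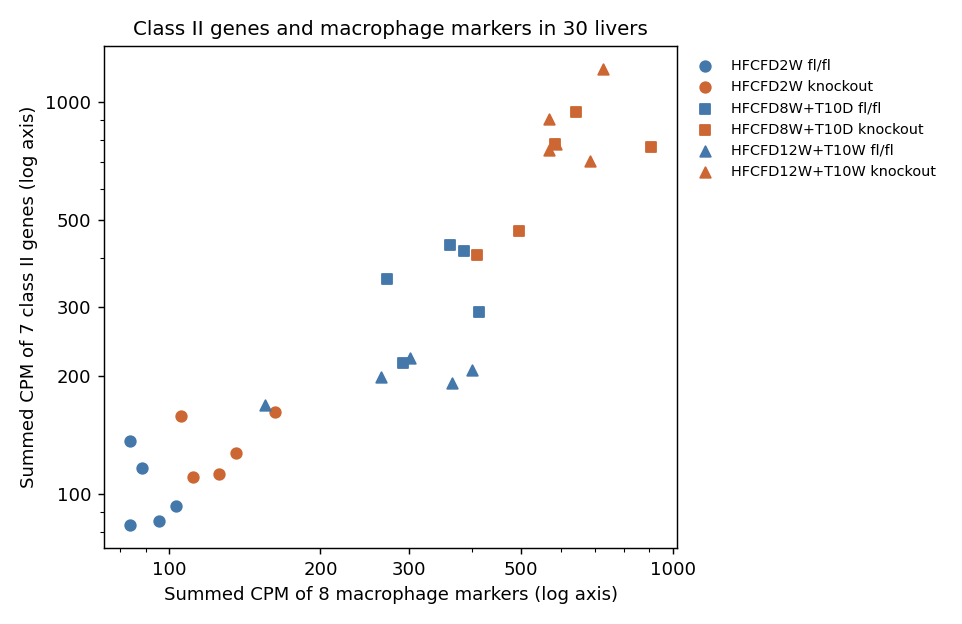
Summed CPM of the 7 class II genes (y axis, log scale) against the summed CPM of 8 macrophage markers (x axis, log scale) in 30 livers, with *Cebpa* fl/fl mice in blue, knockout mice in orange and 1 symbol per experiment. HFCFD2W livers lie at the lower left with class II sums of 83.0 to 161 CPM, and knockout livers of HFCFD12W+T10W lie at the upper right with 708 to 1213 CPM.

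Within groups, the 7 genes varied together from mouse to mouse. Each gene's log2 CPM was taken as the deviation from its group mean in the 30 libraries, and Pearson's r with the mean deviation of the 7 genes was 0.97 for *Cd74*, 0.96 for *H2-Ab1*, 0.93 for *H2-Eb1*, 0.91 for *H2-Aa*, 0.87 for *H2-DMa*, 0.70 for *Ciita* and 0.62 for *H2-DMb1*, each of which is part of that mean. Between pairs of genes r ran from 0.28 (*Ciita* with *H2-DMb1*) to 0.96 (*Cd74* with *H2-Ab1*), and *Cd74*, on another chromosome, was in the closest pair. The points share their library, and the 3 lowest r were those of *H2-DMb1* with *Ciita*, *H2-Eb1* and *H2-DMa*.

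By the same measure, the 8 other genes with the highest r among 12957 were *Sirpb1b* (0.79), *Pla2g16* (0.77), *Plekho2* (0.76), *Tmsb10* (0.76), *Pkm* (0.76), *Coro1a* (0.75), *Tbxas1* (0.73) and *Fam49b* (0.73). The 99th percentile of all these genes was 0.60 and the median -0.01. *Coro1a* encodes an actin-binding protein of leukocytes, and *Tbxas1* encodes thromboxane synthase. In HFCFD12W+T10W *Tmsb10* (log2 2.12), *Coro1a* (1.73), *Tbxas1* (1.70), *Pkm* (1.5), *Plekho2* (1.26) and *Fam49b* (1.07) passed as higher in knockout mice, whereas *Pla2g16* was at 0.17 (adjusted p = 0.285). Of all genes tested there, 27.4% passed as higher. In HFCFD8W+T10D *Coro1a*, *Tmsb10*, *Pkm*, *Fam49b* and *Plekho2* passed as higher, against 10.3% of all genes. In HFCFD2W only *Tbxas1* (1.32) did, against 8.6%. *Sirpb1b* did not pass the low-count filter within an experiment and was not tested there.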

How the data were processed

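Liver mRNA libraries (TruSeq stranded, poly(A)) of 30 mice in 6 groups of 5 were analysed. Per the labels and the submitters' processing notes, the tools included Trimmomatic 0.36, STAR 2.5.1, Picard 1.84, RSEM 1.2.22 and DESeq2, with build mm10. The authors deposited RSEM expected counts per gene without normalization, and TPM per library. TPM is used here to compare levels between genes, and changes between groups are read from CPM. All 55450 gene IDs matched GENCODE M21. Expected counts were rounded to whole numbers (11.3% were not whole). With R 4.3.3, genes passing filterByExpr were compared by edgeR 4.0.16 (TMM, quasi-likelihood F test, Benjamini-Hochberg over all genes tested). Genotype was tested within each experiment, and interactions and control groups in 1 fit of 30 libraries (12964 genes). A call needs an adjusted p under 0.05 and a fold over 2, and "passed" means the adjusted p alone. Interactions need the adjusted p only. log2 CPM used a prior count of 2. Steps were tested on simulated data.

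The members and gene lists were chosen with earlier results of these data known. Named genes are the 7 members, *Cebpa*, *H2-DMb2*, *H2-Ea-ps*, the genes of each list that passed (up to 4 by size where more did) and the 8 non-members most correlated within groups. Genes named beyond this rule (*H2-K1*, *H2-D1*, *B2m*, *Nlrc5*, *Zbtb46*, *Cd4*, *Alb* as a level, *Ifng*, *Erap1*, *Ctsl*, *Epcam*, *H2-Eb2* and *H2-Ob*) were picked after values were seen. Alternatives were DESeq2 1.42.0, upper-quartile scaling, no low-count filter, robust dispersion, the joint fit, a replicate block, no fold minimum and each mouse left out. Some genes of the lists are not reported here.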

Additional observations from a re-analysis of the deposited data

Results flagged for a closer look

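The difference in genotype effect between experiments was tested as an interaction for the 7 genes in 3 pairs of experiments, and 11 of 21 tests passed an adjusted p under 0.05. For HFCFD12W+T10W, 6 of 7 passed against HFCFD2W and 5 of 7 against HFCFD8W+T10D, where 13.4% and 4.97% of all genes passed above 0. Between HFCFD8W+T10D and HFCFD2W 0 of 7 passed, where 4.45% of all genes passed above and 6.79% below 0. Between HFCFD12W+T10W and HFCFD2W the log2 difference of differences was 1.71 for *Cd74*, 1.96 for *H2-Aa*, 1.81 for *H2-Ab1*, 1.75 for *H2-Eb1*, 1.49 for *H2-DMa* and 1.55 for *H2-DMb1*. Between HFCFD12W+T10W and HFCFD8W+T10D it was 1.14 for *Cd74*, 1.24 for *H2-Aa*, 1.18 for *H2-Ab1*, 1.18 for *H2-Eb1* and 0.91 for *H2-DMb1*. Both sets use the same HFCFD12W+T10W libraries.

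A single mouse stood apart from the other 4 of its group in 2 of the 42 sets of gene and group, and chance alone marks about 1 group in 20. *H2-Eb1* was at 32.1 CPM in *Cebpa* fl/fl mouse 3 of HFCFD12W+T10W, a gap to the nearest mouse of 0.779 of the group's range. *Ciita* was at 2.02 CPM in knockout mouse 4 of HFCFD8W+T10D, a gap of 0.747 of the range. That mouse also had the lowest *Cd74*, *H2-Aa*, *H2-Ab1*, *H2-Eb1*, *H2-DMa* and *H2-DMb1* of its group and the lowest macrophage marker sum, 409 CPM. Its hepatocyte marker sum, 105767 CPM, was the highest of its group, and the part of either in its class II values was not tested.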

How the results depend on the processing

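The count of class II genes called higher in HFCFD12W+T10W was 7 in all 17 alternatives. In HFCFD2W it went from 0 to 1 with no fold minimum (*H2-Eb1*), and to 1 with no low-count filter, with DESeq2 and with the joint fit of all libraries (*Ciita* each time). In HFCFD8W+T10D it went from 4 to 7 with no fold minimum, and leaving out 1 mouse gave 0 to 6. Replicate numbers did not pair the mice: same-number correlations were -0.227 to 0.0715 in HFCFD2W, -0.1 to 0.15 in HFCFD8W+T10D and -0.0922 to 0.159 in HFCFD12W+T10W. With the replicate number as a block, the HFCFD8W+T10D count was 2. The larger genotype difference in HFCFD12W+T10W held for 6 genes against HFCFD2W in all 34 alternatives, and for 4 to 6 genes against HFCFD8W+T10D. Of the values of single genes under alternatives, 1461 kept their direction and side of the threshold, 33 lost the adjusted p, 16 gained it and 0 changed sign. The 33 include *H2-Eb1* in HFCFD2W (7 of 16 alternatives), *H2-Ab1* (4 of 16) and *Ciita* (5 of 16) in HFCFD8W+T10D, *H2-DMb1* between the tamoxifen experiments (6 of 34), and *H2-Ab1* (6 of 34) and *H2-Eb1* (5 of 34) between their controls. The 16 include *H2-DMa* between the tamoxifen experiments (8 of 34) and *H2-DMb1* between their controls (7 of 34). The cause was not tested. Depth limits *Ciita* and *H2-DMb2*, with 1 to 12 and 0 to 4 counts per library in HFCFD2W.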
